A study of Mus musculus with 23 samples.

Results

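Promoter accessibility of the genes that build centrosomes, cilia and the spindle was followed in 3T3-L1 cells, an established mouse preadipocyte line that can be turned into fat cells. The genes were chosen by name: every gene that the authors assigned to a peak and whose symbol is Cep, Kif, Ift, Bbs, Tacc or Haus followed by a number, or starts with Kifc, Tubg or Cenp, plus Stil and Katnbl1. This gave 111 of the 11533 genes named in the series, with 110 of 11026 on day -2, 103 of 8998 on day -1 and 104 of 9366 on day 0. Where a gene had several peaks on a day, the peak with the highest mean was used.

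The assay was ATAC-seq, which counts reads from sites where a transposase could cut open DNA. Cells below confluence were transfected on day -3 of the differentiation schedule with 50 nM of siRNA, either a non-targeting control (scramble) or siRNA against Kdm5c, a histone lysine demethylase. Nuclei were taken 24, 48 and 72 hours later, on days -2, -1 and 0, so both arms carried siRNA and transfection reagent at every time. Each of the 6 groups had 4 libraries, except Kdm5c siRNA on day 0 with its 3 replicates 1, 2 and 4. Whether replicates were separate cultures is not said in the labels, so the p-values cover only the spread among these libraries, and that spread may be technical.

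A centrosome holds a pair of centrioles inside a matrix that anchors gamma-tubulin ring complexes, the seeds of new microtubules. In dividing cells centrosomes organise the spindle, on which kinesin motors and kinetochore proteins of the Cenp group move chromosomes, while augmin adds microtubules along the spindle. In resting cells the older centriole becomes the base of a primary cilium, which intraflagellar transport (Ift) trains and the BBSome (Bbs) build and supply, and preadipocytes carry such a cilium before they differentiate.

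Of the 111 genes, 98 had an entry in a table of RefSeq promoters (GRCm38.p6), which holds 250 bases before and 50 after the start, and for 94 of them that start lay within 1000 bases of the peak. The starts of 5 of these 94 are printed here up to 20 bases past the start, because these genes had an unadjusted p under 0.05 between siRNA arms on day -1 or 0 and represent centriole duplication, a ciliary kinesin, the kinetochore, augmin and a cytokinesis motor. They read 5′ to 3′ along the gene, and capitals mark exact matches to the motifs named after them. Stil lies at chr4:114999868-115000137 on the plus strand, Kif24 at chr4:41464829-41465098 on the minus strand, Cenpk at chr13:104228716-104228985 on the plus strand, Haus6 at chr4:86612036-86612305 on the minus strand and Kif23 at chr9:61946780-61947049 on the minus strand.
Stil: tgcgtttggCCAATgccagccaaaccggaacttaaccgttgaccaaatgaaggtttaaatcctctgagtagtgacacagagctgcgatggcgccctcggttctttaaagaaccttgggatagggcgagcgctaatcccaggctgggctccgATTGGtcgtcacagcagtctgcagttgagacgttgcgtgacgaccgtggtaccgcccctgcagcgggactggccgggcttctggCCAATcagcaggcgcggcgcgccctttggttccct
Kif24: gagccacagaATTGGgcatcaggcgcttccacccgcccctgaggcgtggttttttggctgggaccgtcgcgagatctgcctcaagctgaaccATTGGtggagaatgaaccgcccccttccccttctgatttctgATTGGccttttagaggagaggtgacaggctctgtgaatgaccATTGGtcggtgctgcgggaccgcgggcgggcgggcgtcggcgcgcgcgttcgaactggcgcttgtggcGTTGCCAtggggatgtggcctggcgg
Cenpk: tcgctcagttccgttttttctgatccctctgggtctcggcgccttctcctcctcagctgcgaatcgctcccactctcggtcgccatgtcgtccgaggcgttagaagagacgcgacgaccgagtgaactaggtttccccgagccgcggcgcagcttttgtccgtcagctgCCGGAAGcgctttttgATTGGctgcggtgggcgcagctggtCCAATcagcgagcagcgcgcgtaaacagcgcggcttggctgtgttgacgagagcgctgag
Haus6: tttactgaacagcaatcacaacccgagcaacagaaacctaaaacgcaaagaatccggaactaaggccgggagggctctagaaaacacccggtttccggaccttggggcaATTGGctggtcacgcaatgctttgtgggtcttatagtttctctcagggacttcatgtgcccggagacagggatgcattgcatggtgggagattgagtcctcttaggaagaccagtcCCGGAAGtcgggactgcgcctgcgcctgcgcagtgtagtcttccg
Kif23: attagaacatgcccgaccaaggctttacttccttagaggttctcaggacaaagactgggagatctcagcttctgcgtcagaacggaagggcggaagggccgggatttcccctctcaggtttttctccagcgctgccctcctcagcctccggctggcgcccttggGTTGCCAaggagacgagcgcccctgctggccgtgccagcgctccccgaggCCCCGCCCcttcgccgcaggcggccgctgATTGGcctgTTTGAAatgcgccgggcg

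The capitals in the Stil promoter are 3 NFY boxes (CCAAT, read as ATTGG on the other strand) that begin 241, 99 and 15 bases before the start. Kif24 had 4 such boxes and an RFX match (GTTGCCA) 6 bases before the start. Cenpk had an ETS match (CCGGAAG) 81 bases and NFY boxes 65 and 40 bases before the start. Haus6 had an NFY box at 141 bases and an ETS match at 25 bases. In Kif23, an RFX match lay 86 bases before the start, an SP/KLF match (GGGCGGGG) 36 bases before it, an NFY box 7 bases before it, and a CHR (TTTGAA), an element known from cell cycle genes, 2 bases after it.

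In all, 12 exact motifs were searched on both strands of the full 300 bases, and a match is a description of letters, not a bound site. CCAAT occurred in 55.3% of the 94 member promoters, against 38.4% of 7911 genes with a named peak on day -2 and 37.9% of all 27025 promoters in the table. TTTGAA occurred in 22.3% against 10.6% and 18.1%. Its 21 holders were Cenpa, Cenpf, Cenpw, Cep112, Cep162, Cep164, Cep295, Cep55, Cep57l1, Cep72, Cep89, Kif11, Kif15, Kif18b, Kif20b, Kif22, Kif23, Kif26b, Kif4, Kifc1 and Kifc5b. GTTGCCA occurred in 10.6% against 3.83% and 4.46%, in Cep112, Cep128, Cep41, Haus5, Ift27, Ift88, Kif16b, Kif18a, Kif23 and Kif24. The E2F match TTCCCGCC was found in 10.6% against 4.71% and 2.24%, and a second E2F form, TTTGGCGC, in 3.19% against 0.961% and 0.537%.

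The other motifs gave shares on either side of those backgrounds. CCGGAAG was found in 22.3% against 18.2% and 9.12%, the cyclic AMP element TGACGTCA in 7.45% against 3.56% and 1.88%, and the ZBTB33 motif in 2.13% against 1.09% and 0.496%. GGGCGGGG was found in 25.5% against 36.8% and 17.8%, the AP-1 match TGANTCA in 1.06% against 4.58% and 7.93%, the YY1 match AAGATGGC in 4.26% against 4.64% and 2.88%, and the NRF1 motif in 1.06% against 2.31% and 0.977%. Median GC content was 62% in the members and in the genes with a peak, and 52.7% in the whole table. No test was made of these shares.

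Counts over all peaks ranged from 4474964 to 14913397 per library, of which mitochondrial peaks held 56.4% to 93.2%, leaving 781309 to 3345583 nuclear counts. Named peaks were present for 8, 6 and 6 of 10 preadipocyte markers on days -2, -1 and 0 and for 0 of 3 blood markers on every day. For the other cell types, named peaks were present on those days for 4, 3 and 4 of 8 adipocyte markers, 2, 1 and 1 of 3 endothelial markers, 1, 0 and 0 of 3 epithelial markers and 2, 0 and 0 of 3 muscle markers. The peak at the targeted gene, Kdm5c, at chrX:152232661-152233232 on day -2, had 27.5 to 65.4 normalised counts in Kdm5c siRNA libraries and 46.8 to 84.8 in scramble. On day -1 it had 20.2 to 58.0 against 31.6 to 36.4, and on day 0 it had 45.6 to 56.3 against 36.2 to 49.1. In edgeR its adjusted p-values were 0.98, 0.985 and 0.978. This measures accessibility, not the mRNA that an siRNA removes, so it does not check the knockdown.

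Most of these genes had a named peak throughout the time course. The choice of genes required such a peak on at least 1 day, and the share over all named genes was not computed. A named peak was present on all 3 days for 101 genes, on 2 days for 4 and on 1 day for 6. The genes seen only on day -2 were Cep89, Haus5, Kif1a, Kif26a and Kifc3, and only Tubg2 was named on day 0 alone. Kif18b and Kif2c also lacked a named peak on day -1, and Kif15 and Kif22 lacked one on day 0. In each of these cases no peak of any name overlapped the position on the missing day, but the peak sets also differed in size, with 84019, 31970 and 37054 peaks.

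Most of the peaks that could be checked sat on the starts of the genes. Of the genes found in the RefSeq table, the peak covered the named gene's own start for 89 of 97 on day -2 (91.8%), 82 of 91 on day -1 (90.1%) and 84 of 92 on day 0 (91.3%). The shares over all named nuclear peaks were 73.5%, 80.5% and 80.4%. That set holds every named peak, whereas each member stands with only its peak of highest mean, so the sets are unlike. The same holds for the levels and the spread compared with all named peaks below. Another gene's start lay in the same peak for 20, 21 and 19 members, among them Cenpk with Ppwd1, Kif24 with Nudt2, Cep57 with Fam76b, Kif3a with A430108G06Rik and Tacc3 with Tmem129. Accessibility there cannot be assigned to 1 of the genes. Cep83os and Kif16bos are names of RNA genes on the strand opposite Cep83 and Kif16b. The roles below follow gene names, so the centrosomal group holds Cep83os, the kinesin group holds Kif16bos and Kif1bp, a protein that binds kinesins, and the centromere group holds Cenpj, a protein of the centriole.

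Levels were compared as normalised counts (raw counts over each library's relative effective size) per kb of peak width. The median member had 91.3, 68.0 and 84.4 per kb on days -2, -1 and 0, against 84.1, 64.1 and 77.2 over all named peaks. Day by day the lowest to highest member spanned 47.1 to 709, 39.4 to 600 and 46.3 to 721. The highest on each day was Kifc5c-ps, a pseudogene copy of a minus-end kinesin, with 709, 600 and 721 per kb. Its near-identical copies Kifc1 and Kifc5b are also members, so reads could have been split among them and these values are uncertain. On day -2 Kifc1 had 116 and Kifc5b 92.7 per kb. The Kifc5c-ps peak of that day lay at chr10:117594084-117596027. Its level was not compared with neighbouring peaks of the same stretch of that chromosome. Why Kifc5c-ps stood so far above the other members was not tested.

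Below it stood kinetochore genes. Cenpf, a large kinetochore-associated protein, had 215 per kb on day -2, 156 on day -1 and 187 on day 0. Cenpc1, which links centromeric nucleosomes to the kinetochore, had 213 on day -2 and 230 on day 0. On day -1 it had 115 per kb, where its peak was 1992 bases wide, against 1017 on day -2 and 942 on day 0. Cenpu, of the inner kinetochore, followed Cenpf on day -1 with 146. Cep128, a protein of the appendages of the older centriole, followed Cenpc1 on day 0 with 195.

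The lowest members on day -2 were Kifc3 at 47.1, Cep89 at 48.9 and the chromokinesin Kif22 at 51.7 per kb. On day -1 they were the spindle kinesin Kif15 at 39.4, Cep162 at 39.6 and Kif22 at 41.8, and on day 0 the inner kinetochore genes Cenpi at 46.3 and Cenph at 46.6 and the cargo kinesin Kif13a at 46.7. Kifc3, Cep89, Kif15 and Kif22 were also among the genes that had no peak on another day.

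Within the other roles, the highest on day -2 were Ift57 (162 per kb), Tacc3, a spindle protein (140), Bbs2 (135), Haus7 (115) and the gamma-tubulin complex gene Tubgcp6 (115). On day -1 they were Ift27 (96.5), Tacc3 (93.3), Haus7 (90.6), Bbs9 (82.4) and Tubgcp5 (79.9), and on day 0 Tacc3 (139), Ift27 (132), Haus7 (122), Tubgcp5 (121) and Bbs2 (104). Stil had 156, 116 and 168 per kb and Katnbl1 122, 86.3 and 106 on the 3 days, above the member median each time. The order of the 101 genes was alike between days, with Spearman's rho 0.73 for days -2 and -1, 0.81 for days -1 and 0, and 0.75 for days -2 and 0. These correlations run across genes that share libraries and peak width, and are a description.

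The spread between replicates gives the scale for the differences that follow. The median coefficient of variation of a member over scramble libraries was 15.3%, 18.2% and 19.2% on days -2, -1 and 0, against 19.4%, 21.1% and 20.1% for all named peaks. Over Kdm5c siRNA libraries it was 17.2%, 19.0% and 18.4%.

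**Figure D1:**
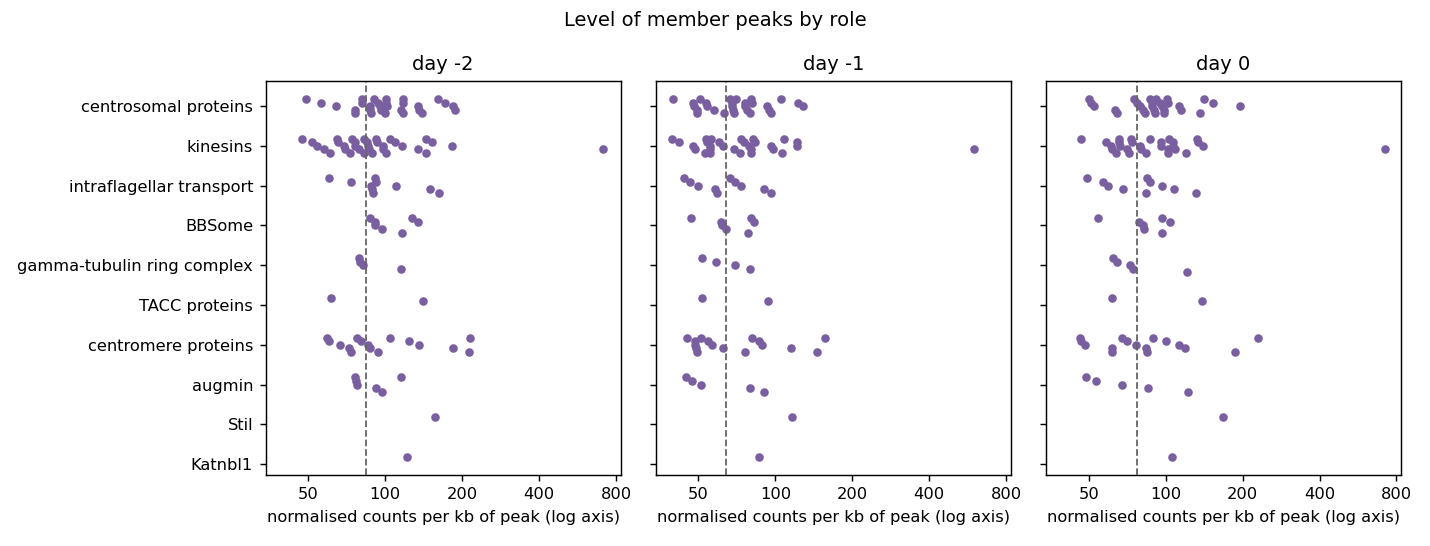
Mean level of each member peak over all libraries of a day, in normalised counts per kb of peak on a log axis, by role of the gene. The dashed line is the median of all named peaks (84.1, 64.1 and 77.2), and the point far to the right among the kinesins is Kifc5c-ps.

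No member passed the test between Kdm5c siRNA and scramble on any day. By edgeR's quasi-likelihood test with Benjamini-Hochberg adjustment over all peaks, 0 of 109 members tested passed 0.05 on day -2, 0 of 101 on day -1 and 0 of 103 on day 0. Over all peaks 0.00404% passed on day -2, 0% on day -1 and 0.00352% on day 0, and DESeq2 called 0 members on each day. The members at an unadjusted p under 0.05 numbered 2 on day -2 (1 higher, 1 lower), 3 on day -1 (all lower) and 6 on day 0 (1 higher, 5 lower). The same limit took in 4.63%, 5.38% and 5.99% of all peaks tested, and 4.32%, 5.32% and 4.8% of peaks with a gene name, so the member counts were not above the background on days -2 and -1 and near it on day 0. DESeq2 gave 1, 3 and 2 members at that limit. Stil and Katnbl1, which are members by name with earlier results known, make up 2 of the 3 on day -1, and Katnbl1 is 1 of the 6 on day 0. Without these genes the edgeR counts were 2 of 107, 1 of 99 and 5 of 101.

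Single libraries moved these small counts. On day -2 the count was 4 without Kdm5c siRNA replicate 1, 5 without replicate 3 of that arm and 1 without scramble replicate 1. Over all peaks these refits gave 2228, 4087 and 2821 at that limit, against 2291 in the main fit. On day -1 the member count was 5 when Kdm5c siRNA replicate 3 or scramble replicate 2 was left out, with 1282 and 1382 over all peaks against 1253. On day 0 it was 9 without Kdm5c siRNA replicate 1, 1 without replicate 2 of that arm, 11 without scramble replicate 2 and 3 without scramble replicate 3. Over all peaks these refits gave 1818, 1526, 1458 and 1596, against 1701 in the main fit. Members whose groups did not overlap numbered 4, 4 and 3 on the 3 days (3.67%, 3.96% and 2.91%). The shares were 2.87%, 3.27% and 6.22% of all peaks and 2.95%, 3.37% and 5.4% of those with a gene name. Stil and Katnbl1, added by name with earlier results known, were among the 4 of day -1.

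Role by role, the differences lay around 0 on day -2 and more often below it on day -1. The member median of log2 fold change (Kdm5c siRNA over scramble) was 0.04 on day -2, with 63 members above 0 and 46 below, -0.09 on day -1, with 34 above and 67 below, and -0.05 on day 0, with 41 above and 62 below. For all peaks with a gene name the medians were 0.03, -0.00069 and -0.01, and on day -1 4403 lay above and 4435 below. On day -1 the median was -0.07 over 28 centrosomal proteins, -0.09 over 29 kinesins, -0.09 over 10 intraflagellar transport genes, 0.0076 over 7 BBSome genes and -0.02 over 15 centromere proteins. All 5 augmin genes lay below 0 on day -1, with a median of -0.20, whereas on day -2 5 of 6 lay above it, and none of them had an unadjusted p under 0.05 on either day. These medians hold relative to the bulk of nuclear peaks: scaling by total counts put the day -1 member median at 0.29 and that of all peaks at 0.38.

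**Figure D2:**
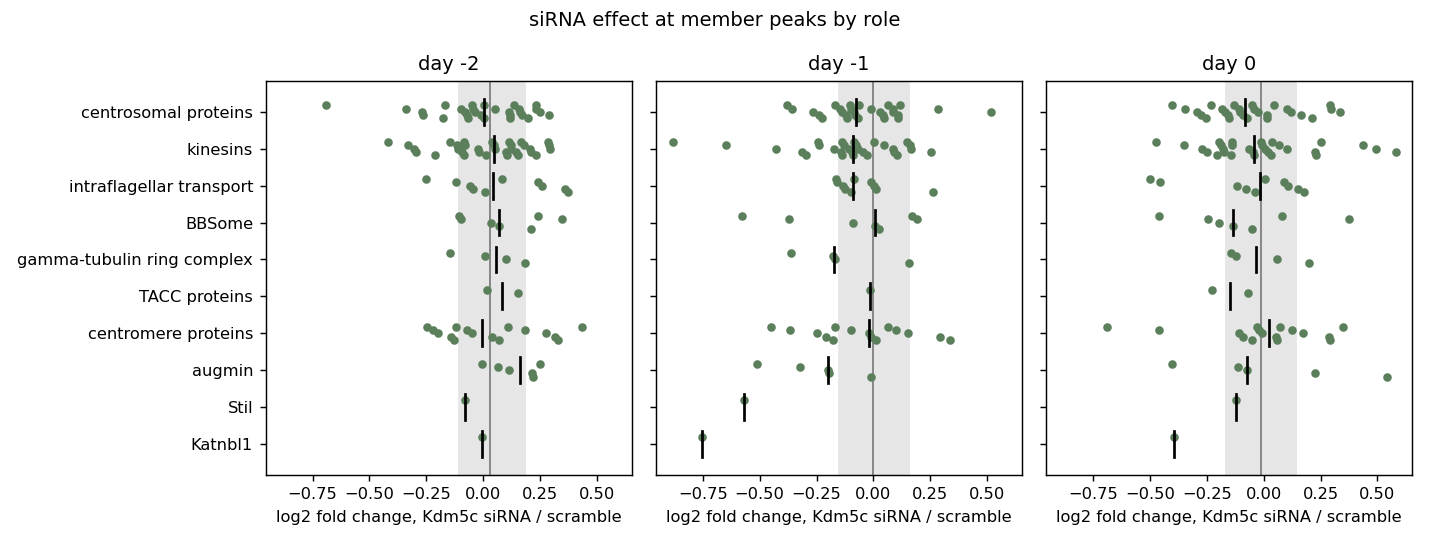
Log2 fold change of each member peak, Kdm5c siRNA over scramble, by role and day. Black bars are role medians, the grey line and band are the median and the middle 50% of all peaks with a gene name, and on day -1 the bars of Katnbl1 (-0.75) and Stil (-0.57) are the lowest of the rows, although the lowest single point is a kinesin.

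On day -2 fewer than 3 members had an unadjusted p under 0.05, so the 3 with the smallest p are given. Cep57, a protein of the matrix around the centrioles, had 322, 244, 297 and 329 normalised counts with Kdm5c siRNA and 247, 259.7, 254 and 213 with scramble at chr9:13826716-13828394. The groups overlapped, with 3 of 4 Kdm5c siRNA libraries above all scramble libraries, and the log2 fold change was 0.29 (SE 0.13). Cep170, a microtubule-binding protein of the centriole's appendages, had 258, 253, 279.8 and 273 with Kdm5c siRNA and 328, 378, 315 and 268 with scramble, which gave -0.27 (SE 0.13) on the log2 scale. Kif20b, a kinesin of cytokinesis, had 84.3, 68.6, 91.6 and 89.8 and 121, 93.1, 126 and 79.6, or -0.33 (SE 0.17). The edgeR adjusted p was 0.98 for each of the 3.

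On day -1 the lowest p-values belonged to Katnbl1 and Stil. Both were named in the choice of genes with earlier results of these data known, so their day -1 values are a description and support nothing further. Katnbl1 encodes a regulator of katanin, the enzyme that severs microtubules, and its day -1 peak lay at chr2:112378907-112379719. It had 46.0, 60.3, 58.7 and 44.9 normalised counts with Kdm5c siRNA and 70.0, 101, 85.4 and 94.0 with scramble. All 4 Kdm5c siRNA libraries lay below all 4 scramble libraries, with a log2 fold change of -0.75 (SE 0.18) and an edgeR adjusted p of 0.271.

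Stil encodes the scaffold that works with the kinase Plk4 to start a new centriole, and its peak at chr4:114999628-115000747 contains the promoter printed above. It had 118, 129.9, 88.0 and 85.4 with Kdm5c siRNA and 133, 174, 164 and 148 with scramble. These groups did not overlap either, and the log2 fold change was -0.57 (SE 0.15) with an edgeR adjusted p of 0.536. Over the single libraries left out, it ranged from -0.68 to -0.47 for Stil and from -0.86 to -0.67 for Katnbl1. Scaling by total counts gave -0.18 and -0.38.

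Kif24, a kinesin that restrains cilium growth at the centriole, had 40.0, 41.8, 44.5 and 55.7 with Kdm5c siRNA and 55.6, 51.2, 79.8 and 64.1 with scramble. The highest Kdm5c siRNA library lay inside the scramble range, and the log2 fold change was -0.43 (SE 0.20) with an edgeR adjusted p of 0.891. Its peak, at chr4:41464622-41465306, also holds the start of Nudt2.

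On day 0 the smallest p among members was that of Cenpk, a subunit of the inner kinetochore, at chr13:104228514-104229055. It had 29.5, 34.4 and 36.2 normalised counts in the 3 Kdm5c siRNA libraries and 65.2, 44.0, 63.9 and 45.6 in the 4 scramble libraries. The groups did not overlap, and the log2 fold change was -0.69 (SE 0.24) with an edgeR adjusted p of 0.712. Haus6, a subunit of augmin, had 56.3, 51.2 and 59.9 against 77.5, 70.5, 81.1 and 67.1, again without overlap, with -0.40 (SE 0.20) and an edgeR adjusted p of 0.821. Kif23, a motor of the midbody in cytokinesis, was the only one of the 6 above 0, with 37.5, 65.1 and 44.5 against 39.3, 33.0, 44.2 and 22.8, or 0.49 (SE 0.25).

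The other 3 were lower at the same unadjusted limit and overlapped. Katnbl1 had 91.1, 60.5 and 82.9 with Kdm5c siRNA and 103, 74.8, 130.2 and 102 with scramble, or -0.39 (SE 0.17). Kif6, a kinesin, had 97.8, 65.1 and 67.0 and 96.7, 90.3, 95.8 and 99.2, or -0.35 (SE 0.18). Kifc5c-ps had 828, 615 and 556 and 748, 703, 862 and 881, or -0.27 (SE 0.12), in a repeated gene whose reads may be shared. Their edgeR adjusted p-values were 0.776, 0.826 and 0.776, and that of Kif23 was 0.83. On day -2 the difference was -0.08 (SE 0.14) for Stil and -0.0073 (SE 0.17) for Katnbl1. On day 0 that of Stil was -0.12 (SE 0.15).

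To compare days, peaks were matched across the 3 sets by a reciprocal overlap of 50%, which kept 88 of the 111 genes among 13674 tested peaks. On that common scale Stil averaged 132 ± 17.1 normalised counts (SD, n = 4) in scramble on day -2, 200.5 ± 23.3 on day -1 and 150.2 ± 18.6 on day 0. With Kdm5c siRNA it averaged 127 ± 24.1 (n = 4), 137 ± 28.4 (n = 4) and 139 ± 18.8 (n = 3). The scramble libraries of day -1, at 173, 226, 212 and 191, stood above every other Stil value, while the Kdm5c siRNA libraries of the 3 days overlapped one another.

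For Katnbl1 the scramble means were 79.4 ± 18.5, 114 ± 17.5 and 106 ± 22.9 (SD, n = 4 each) on days -2, -1 and 0. Those with Kdm5c siRNA were 79.5 ± 10.9, 68.1 ± 10.2 and 80.3 ± 16.9. Here the scramble means of days -1 and 0 lay above that of day -2, and those of Kdm5c siRNA lay closer together. The siRNA difference of day -1 and the rise of scramble to day -1 rest on the same 4 scramble libraries and are not independent of each other.

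**Figure D3:**
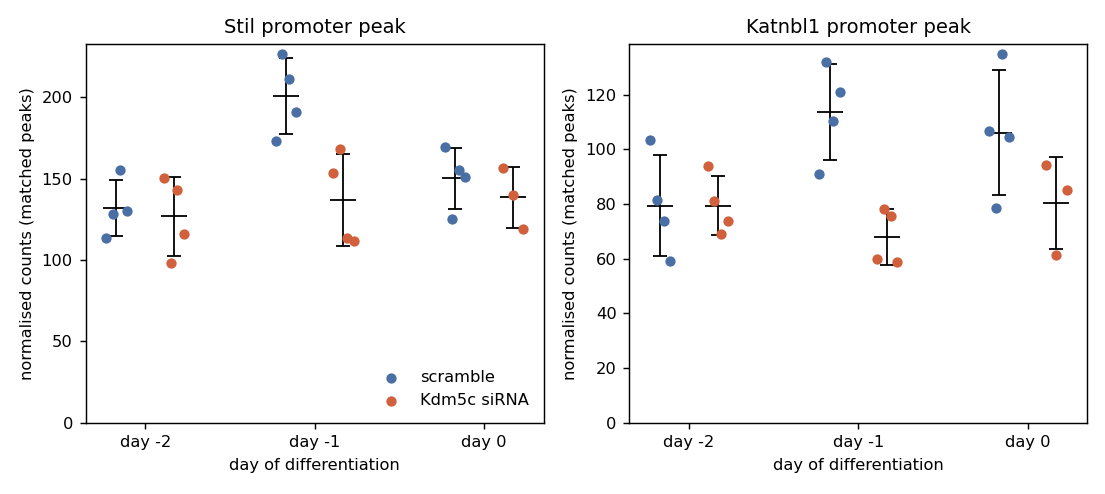
Normalised counts of the matched Stil and Katnbl1 peaks in every library, with group mean and SD, by day and siRNA. The 4 scramble libraries of day -1 lie above all 4 Kdm5c siRNA libraries of that day in both panels, and on day -2 the groups overlap.

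The test of whether the siRNA difference itself changed between days called no member: 0 of 88 by edgeR's interaction test, as for 0% of all matched peaks. At an unadjusted p under 0.05 there were 6 members, or 4 of 86 without Stil and Katnbl1, against 5.65% of all matched peaks. The smallest p-values were those of Cep57 (0.00297, adjusted p = 0.70), Katnbl1 (0.0067, adjusted p = 0.81) and Cenpk (0.00995, adjusted p = 0.82). For Stil the day -1 difference minus that of day -2 was -0.50 (SE 0.19), and for Katnbl1 it was -0.77 (SE 0.24). Both values reuse the day -1 difference that was known when these genes were named, and are a description.

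Across days within scramble, a few members passed. From day -2 to day -1, 3 of 88 were called by edgeR, all higher, against 5.73% of all matched peaks and 4.39% of those with a gene name. Calls in the higher direction took in 3.17% and 2.38% of these, and calls in the lower direction 2.57% and 2%. They were Stil, Katnbl1 and Kif3c, a kinesin subunit that pairs with Kif3a. As Stil and Katnbl1 were added by name with earlier results known, the count among the other members was 1 of 86. With peak width as an offset 11 members were called, all higher, of which 2 (Stil and Katnbl1) were among these 3. That setting called 1147 of all matched peaks higher and 118 lower, and put the median of all peaks at 0.16. In the main fit the member median was 0.02 and that of all peaks -0.01. Among members that did not pass, Cep78 and Cep72, both of the centriole region, had the largest p, with log2 fold changes of -0.0014 and -0.0027.

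Stil rose by 0.60 (SE 0.13) on the log2 scale, with 114, 128, 155 and 129.9 in the 4 scramble libraries of day -2 against the day -1 values given above, without overlap (edgeR adjusted p = 0.0018). The call held under every alternative setting that gave it a value except scaling by total counts, under which all 88 members were called lower along with 13368 of 13674 peaks. Stil and Katnbl1 were added by name with earlier results known, so their rises and these refits are a description and support nothing further. Katnbl1 had 103, 81.4, 73.7 and 59.1 on day -2 and 90.8, 132, 110.3 and 121 on day -1, or 0.54 (SE 0.17, edgeR adjusted p = 0.031). Its call was lost without scramble day -2 replicate 2, 3 or 4 and without scramble day -1 replicate 2 or 4, with adjusted p from 0.053 to 0.19. Katnbl1 was also not called at an overlap of 80%, which its peaks meet and where 0 of 27 members were called. DESeq2 kept 2 of the 3 calls of this contrast. In Kdm5c siRNA libraries the same contrast was 0.10 for Stil (adjusted p = 0.73) and -0.23 for Katnbl1 (adjusted p = 0.48).

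Kif3c had 56.3, 47.8, 41.0 and 35.1 in scramble on day -2 and 98.3, 81.1, 79.5 and 48.1 on day -1, or 0.79 (SE 0.21, edgeR adjusted p = 0.0098), and 0.62 with Kdm5c siRNA (adjusted p = 0.051). Its called peak widened from 526 to 985 bases between these days, and with peak width as an offset the value was -0.11. The call was also lost without scramble day -2 replicate 4 (adjusted p = 0.063) or scramble day -1 replicate 1 (adjusted p = 0.081). For Stil the width went from 1042 to 1119 bases and for Katnbl1 from 816 to 812.

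From day -1 to day 0, 3 of 88 members were called in scramble, 1 higher and 2 lower, against 6.86% of all matched peaks and 4.37% of those with a gene name. Higher calls took in 2.7% and 3.48% of these, and lower calls 4.16% and 0.886%. The member median was 0.09, against 0.01 over all peaks and 0.08 over those with a gene name. Cenpk went from 27.4, 41.1, 16.3 and 38.5 to 67.3, 46.3, 66.1 and 46.7, or 0.84 (SE 0.25, edgeR adjusted p = 0.024). Stil fell by 0.42 (SE 0.14, edgeR adjusted p = 0.045) to 169.5, 125, 155 and 151. Kif16bos, the RNA gene opposite Kif16b, had 121, 129.5, 74.1 and 132 and then 81.3, 81.0, 71.2 and 96.2, or -0.49 (SE 0.16, edgeR adjusted p = 0.046).

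Each of these 3 calls was lost when some single libraries were left out. That of Cenpk was lost without scramble day -1 replicate 1 or 3 and day 0 replicate 1 or 3, with adjusted p from 0.073 to 0.12. Those of Stil and Kif16bos were each lost in 6 of 8 such refits, at 0.054 to 0.18 for Stil (day -1 replicates 2, 3 and 4, day 0 replicates 2, 3 and 4) and 0.067 to 0.14 for Kif16bos (day -1 replicates 1, 2 and 4, day 0 replicates 1, 2 and 3). With peak width as an offset none of the 3 was called. The values were then 0.66 for Cenpk (adjusted p = 0.11), 0.0047 for Stil (adjusted p = 0.99), whose peak narrowed from 1119 to 836 bases, and -0.17 for Kif16bos (adjusted p = 0.62). With Kdm5c siRNA the 3 contrasts were -0.16, 0.01 and -0.09. Cep350 (-0.006) and Haus1 (-0.02) had the largest p.

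Over the whole interval from day -2 to day 0, a contrast added after the data were seen, 9 of 88 members were called in scramble, 8 higher and 1 lower. That compares with 20.6% of all matched peaks and 12.2% of those with a gene name, so the members' share was not above that of other promoters. Without Stil and Katnbl1 it was 8 of 86. With peak width as an offset 13 members were called, all higher, of which 4 (Cep128, Cenpk, Kif6 and Cep57) were among the 9. That setting called 1465 of all matched peaks higher and 657 lower, and put the median of all peaks at 0.12. With factors from named peaks alone 4 were called, 3 of them among the 9, and at an overlap of 80% the 1 call among 27 members was that of Cenpi. In the main fit higher calls made up 9.16% of all matched peaks and 9.57% of those with a gene name, and lower calls 11.5% and 2.64%. The member median was 0.11, against 0.02 for all peaks and 0.09 for those with a gene name. All 10 intraflagellar transport genes had a value above 0, with a median of 0.19, and all 5 augmin genes, with a median of 0.18, but 1 of each passed. Values above 0 were also the more frequent among all members (64 of 88) and all matched peaks with a gene name (4284 of 6887). The kinesins had a median of -0.09, with 9 of 19 above 0 and 1 called.

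Ift80, part of the complex that carries cargo to the ciliary tip, had the smallest p, with 106, 44.8, 55.5 and 63.7 on day -2 and 90.6, 114, 116 and 109 on day 0. It rose by 0.68 (SE 0.17, edgeR adjusted p = 0.0018) in scramble and by 0.47 (adjusted p = 0.046) with Kdm5c siRNA. Its peak went from 1542 to 2145 bases, and with width as an offset the value was 0.20 and not called (adjusted p = 0.45).

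Cenpi, of the inner kinetochore, was the member that fell, by 0.93 (SE 0.30, edgeR adjusted p = 0.017), from 35.8, 43.7, 36.5 and 26.6 to 20.9, 20.8, 16.5 and 15.1. The groups did not overlap, and the call was lost without scramble day -2 replicate 2 (adjusted p = 0.061) or day 0 replicate 4 (adjusted p = 0.052). Its peak went from 493 to 420 bases, and with width as an offset the value was -0.70 and not called (adjusted p = 0.097). Cep85l, a centrosomal protein, rose by 0.53 (edgeR adjusted p = 0.0098), lost without scramble day 0 replicate 4 (adjusted p = 0.11) and with width as an offset (0.37, adjusted p = 0.10). With Kdm5c siRNA, Cenpi had -0.40 and Cep85l 0.41.

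The remaining 6 passed more narrowly and each lost its call in some refits that left out 1 scramble library. Cep128 (0.40, edgeR adjusted p = 0.023) lost it without day -2 replicate 3 or 4 or day 0 replicate 1 or 4, at up to 0.24. Cep57 (0.35, 0.024) lost it without day -2 replicate 4 or day 0 replicate 4, at up to 0.14. Kif6 (0.49, 0.028) lost it without day -2 replicate 2 or 4 or day 0 replicate 1, 3 or 4, at up to 0.14. Haus6 (0.52, 0.034) lost it without day -2 replicate 1, 2 or 4 or day 0 replicate 1, 2 or 3, at up to 0.098. Katnbl1 (0.44, 0.045) lost it without day -2 replicate 2, 3 or 4 or day 0 replicate 1, 3 or 4, at up to 0.26. Cenpk (0.61, 0.046) lost it without any day -2 replicate or day 0 replicate 1 or 3, at up to 0.16. The width offset ended the calls of Haus6 (0.40, adjusted p = 0.14) and Katnbl1 (0.34, adjusted p = 0.14) and kept those of the other 4. With Kdm5c siRNA the 6 values, in that order, were 0.33, -0.20, 0.10, 0.02, 0.02 and -0.29.

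Within the Kdm5c siRNA libraries, edgeR called 4 of 88 members from day -2 to day -1, against 6.37% of all matched peaks (3.57% higher, 2.8% lower). Of matched peaks with a gene name it called 5.37%. Kif1b, a motor of organelle transport, fell by 0.56 (SE 0.17), Bbs9, a BBSome subunit, fell by 0.83 (SE 0.26) and Cep57 fell by 0.41 (SE 0.12), while Cep85l rose by 0.55 (SE 0.16). From day -1 to day 0, 2 of 88 were called, against 3.79% (1.51% higher, 2.28% lower) and 2.54% of those with a gene name. Kif24 rose by 0.60 (SE 0.19), and Tubgcp4, of the gamma-tubulin ring complex, fell by 0.77 (SE 0.22). From day -2 to day 0, 4 of 88 were called, against 15% (7.27% higher, 7.69% lower) and 9.93% of those with a gene name. Kif1b fell by 0.69 (SE 0.18) and Ift81, which binds tubulin in intraflagellar transport, by 0.74 (SE 0.26), while the centriolar gene Cep44 rose by 0.45 (SE 0.15), as did Ift80. Peak widths moved with most of these calls. From day -2 to day -1 the width went from 1487 to 1014 bases for Kif1b, 467 to 309 for Bbs9, 1678 to 1525 for Cep57 and 899 to 1144 for Cep85l. From day -1 to day 0 it went from 684 to 915 for Kif24 and 967 to 581 for Tubgcp4, and from day -2 to day 0 from 1487 to 985 for Kif1b, 742 to 413 for Ift81, 1542 to 2145 for Ift80 and 1300 to 1049 for Cep44.

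With width as an offset, 1 of these 10 calls held, that of Cep44 (0.76, edgeR adjusted p = 0.00014). The first contrast then gave -0.0072 for Kif1b, -0.23 for Bbs9, -0.27 for Cep57 and 0.20 for Cep85l. The next gave 0.18 for Kif24 and -0.03 for Tubgcp4, and from day -2 to day 0 Kif1b had -0.10, Ift81 0.10 and Ift80 -0.0016. The genes called in Kdm5c siRNA libraries were named after their values were seen, their calls were not refitted without single libraries, and the contrasts share libraries with each other and with the siRNA comparisons.

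Day and library preparation cannot be told apart, and each day had its own peak borders. The log2 fold change of members in scramble followed the log2 ratio of peak widths, with Spearman's rho 0.54, 0.39 and 0.40 for the 3 contrasts over 88 genes, against 0.54, 0.52 and 0.56 over all matched peaks. The part of width in the calls beyond the offset values above was not tested. Scaling by total counts moved the median of all matched peaks to -1.52, 0.46 and -1.05, so every change between days is relative to that bulk. The width offset moved that median to 0.16, -0.05 and 0.12, and the offset values above carry this shift.

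**Figure D4:**
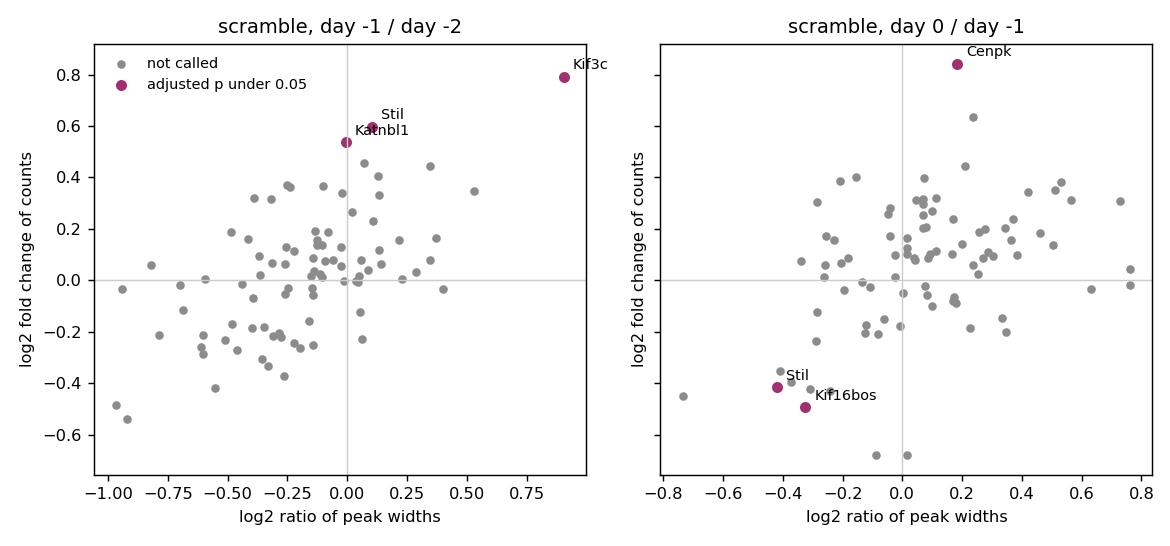
Log2 fold change between days in scramble against the log2 ratio of peak widths, one point per matched member (88). Kif3c, at the right edge of the first panel, had the largest change and the largest widening there, while Stil and Katnbl1 lay near a width ratio of 0 in that panel. In the second panel the Stil peak had narrowed, from 1119 to 836 bases.

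Summed over all members, their peaks held about the same share of the counts in named nuclear peaks in both arms on day -2. The share was 1.15%, 1.17%, 1.2% and 1.21% in the Kdm5c siRNA libraries in rising order and 1.15%, 1.17%, 1.17% and 1.18% in scramble. On day -1 it was 1.01%, 1.05%, 1.08% and 1.08% with Kdm5c siRNA and 1.09%, 1.12%, 1.13% and 1.15% with scramble, so the arms did not overlap. On day 0 it was 1.09%, 1.11% and 1.12% against 1.11%, 1.16%, 1.17% and 1.17%. Without Stil and Katnbl1 the day -1 ranges were 0.983% to 1.05% and 1.04% to 1.11%, which overlapped, and without Kifc5c-ps as well 0.945% to 1.02% and 0.988% to 1.05%. These shares are a description of the libraries.

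**Figure D5:**
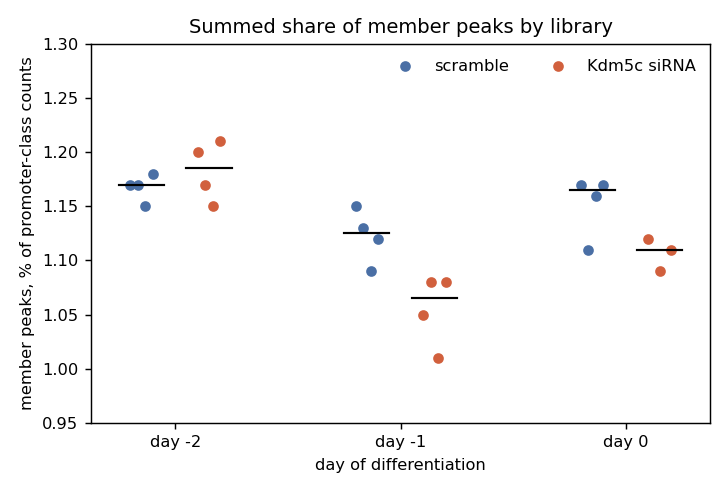
Share of counts in named nuclear peaks that fell in member peaks, one point per library, with the group median as a bar. On day -1 the Kdm5c siRNA libraries (1.01% to 1.08%) lie below the scramble libraries (1.09% to 1.15%).

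Other genes of the same structures were taken from 4 lists. None of them passed edgeR's adjusted threshold on any day. At an unadjusted p under 0.05 there were 3 of 33 centriole and centrosome genes on day -2 (9.09%), 4 of 33 on day -1 (12.1%) and 3 of 33 on day 0 (9.09%). That limit took in 4.63%, 5.38% and 5.99% of all peaks tested on these days. Of peaks with a gene name it took in 4.32%, 5.32% and 4.8%, and the same shares stand beside the other lists below. No test of these list counts was made. The smallest p of this list were those of Nedd1, which ties gamma-tubulin complexes to the spindle, on day -2 (-0.55, SE 0.18) and Mzt1, a small subunit of that complex, on day 0 (-0.47, SE 0.14). Nedd1 had 0.46 (SE 0.23) on day -1, and Plk4, the kinase that works with Stil, had 0.46 (SE 0.23) on that day.

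Among cilium transition zone and transport genes, 0 of 38, 3 of 38 and 0 of 36 were under that limit on days -2, -1 and 0, the smallest p being that of Ttc30b, an intraflagellar transport gene, on day -1 (1.10, SE 0.37). Kinetochore and checkpoint genes gave 0 of 24, 2 of 22 and 1 of 22, with Ska3, which holds kinetochores to microtubules, at 0.65 (SE 0.24) on day -1. Dynein, tubulin and severing or capping genes gave 2 of 30, 0 of 29 and 3 of 29. Between days in scramble, edgeR called 3 of 29 centriole and centrosome genes (1 higher, 2 lower), 1 of 31 cilium genes (higher), 2 of 18 kinetochore genes (both higher) and 1 of 23 dynein and tubulin genes (higher) from day -2 to -1, where 5.73% of all matched peaks and 4.39% of those with a gene name were called. From day -1 to 0 it called 1 of 29 and 1 of 31 (both higher) and 0 of 18 and 0 of 23, against 6.86% and 4.37%. From day -2 to 0 it called 2 of 29 and 4 of 31 (all higher), 4 of 18 (3 higher, 1 lower) and 4 of 23 (2 higher, 2 lower), against 20.6% and 12.2%.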

How the data were processed

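Per the labels, ATAC-seq libraries came from 23 samples in 6 groups. The authors deposited a table of raw read counts per peak for each day, and for peaks with a gene name a normalised signal that equalled each library's count divided by 1 constant, so the deposited counts entered all tests. The signal table supplied the gene names. The build GRCm38 and the tools DESeq2 1.24.0, HTSeq 0.9.1, MACS2 2.1.1, Bowtie2 2.2.9 and cutadapt 2.3 are credited to the submitters' processing notes. Counts per peak also depend on the tools' settings, the pooling of libraries for peaks, and the handling of duplicates and of the transposase offset, none of which is given in the sources used here. The same holds for whether starts count from 0 or 1.

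Each day was fitted alone with edgeR 4.0.16 in R 4.3.3 (quasi-likelihood F test, TMM, filterByExpr with a minimum count of 10, Benjamini-Hochberg over all peaks, threshold 0.05), on all peaks, including those of mitochondrial DNA. Contrasts of days and the interaction used all 23 libraries on matched peaks (bedtools 2.31.1). The SE of a log2 fold change is its size over the square root of F. The model was tested on simulated data. Genes named in the text were Stil and Katnbl1, the members with the smallest p-values per contrast, and the highest and lowest levels. The members and lists were chosen with earlier results of these data known.

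Alternatives were RLE size factors, total counts, no filter on low counts, DESeq2 1.42.0, mitochondrial peaks left out, a replicate block, each library left out, factors from named peaks alone, peak width as an offset, and an overlap of 80%. Replicate numbers did not pair the libraries: same-numbered libraries of the arms correlated in their deviations at -0.04 to 0.16.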

Additional observations from a re-analysis of the deposited data

How the results depend on the processing

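The count of members called between siRNA arms was 0 on every day under every alternative run except total counts on day -2, which called 5. From day -2 to day -1 in scramble there were 3 calls, against 11 with peak width as an offset (2 shared), 0 of the 27 members that an overlap of 80% kept, and 1 to 5 with 1 library left out. From day -1 to day 0 there were 3, against 1 with the width offset, which was another gene, 0 at 80% overlap and 0 to 2 with 1 library left out. From day -2 to day 0 there were 9, against 13 with the width offset (4 shared), 4 with factors from named peaks alone (3 shared), 1 at 80% overlap (shared) and 4 to 9 with 1 library left out. Total counts called 88 members lower in the first contrast, Stil, Katnbl1 and Kif3c among them, 6 higher in the next and 83 lower over the whole interval. Those totals include the mitochondrial peaks, whose share differed between days as given above. At 80% overlap fewer members were tested, and for the other settings the cause was not tested. A width offset moved the calls over all matched peaks from 784 to 1265 in the first contrast and from 938 to 673 in the next.

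The replicate block, which pairs libraries only by number, left the counts at 0, 0 and 0 between arms, 3, 3 and 9 between days and 0 for the interaction. Of 23 libraries, 4 correlated best with one of their own number.

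With total counts, the siRNA differences became 0.38 for Stil, 0.44 for Katnbl1, 0.17 for Cep170 and 0.089 for Kif20b on day -2, and 0.42 for Stil, 0.19 for Katnbl1, 0.27 for Kifc5c-ps, 0.17 for Haus6 and 0.21 for Kif6 on day 0. That setting, whose totals include the mitochondrial peaks, shifted all peaks by 0.44 and 0.56. Cep57 on day -2 then had 0.74 (edgeR adjusted p = 0.030). On day -2 Katnbl1 was 0.0025 without mitochondrial peaks and -0.17 to 0.10 with 1 library left out (0.02 without Kdm5c siRNA replicate 3), and Stil was -0.20 to 0.047 (0.02 without scramble replicate 3). With the width offset Kif3c became -0.11 from day -2 to -1 and Stil 0.0047 from day -1 to 0, and in Kdm5c siRNA libraries Ift81 became 0.10 and Ift80 -0.0016 from day -2 to 0.

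The median member had 70.2, 40.5 and 55.6 raw counts per library on days -2, -1 and 0, with 3 or 4 libraries a group.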

Other observations

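Over the 23 libraries on matched peaks, the named peaks most like Stil were those of Zik1 (Pearson's r 0.80), Exosc2 (0.71) and Syde1 (0.70), among 6886 searched. For Katnbl1 they were Cox18 (0.68), Fam160a2 (0.68) and Pibf1 (0.66). The libraries share group structure and normalisation, so these are descriptions.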
